A study of Mus musculus with 7 samples.

Results

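Pre-mRNA splicing factors were followed in cholangiocytes, which line the bile ducts, as a set of 63 genes chosen by symbol from the 24552 symbols of the deposited count table. The set holds Rsrp1 and every listed gene of the Srsf, Hnrnp, Snrp, Sf3a, Sf3b, Clk, Luc7l and U2af families. The rule uses gene names only, but it was written with earlier results of these data known, and Rsrp1 is the one gene added singly. Of the 63 members, 58 had enough reads for the test, against 7688 of all symbols.

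The cells were EpCAM+ cholangiocytes isolated from the livers of Foxp3GFPDTR mice, in which the diphtheria toxin receptor is placed under Foxp3, the transcription factor that marks regulatory T cells. All animals ate the bile duct toxin DDC for 10 days. The DT group (3 libraries) was injected intraperitoneally with diphtheria toxin at 1 µg/kg, and the PBS group (4 libraries) with saline, every 48 h. The age and sex of the animals are not in the labels, and nothing there says whether a library is 1 mouse or a pool, so a p-value here reflects how far these libraries scatter, part of which may be technical. Every animal carried the receptor and received DDC, so neither the toxin alone nor an uninjured duct was compared.

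A pre-mRNA is spliced by the spliceosome, which assembles anew on each intron from small nuclear ribonucleoproteins, or snRNPs. The U1 snRNP marks the start of the intron, U2AF binds its end, and the U2 snRNP with SF3A and SF3B settles on the branch point. SR proteins, rich in arginine-serine repeats, mostly promote the use of nearby sites, while hnRNPs often act against them, and CLK kinases phosphorylate SR proteins in the nucleus. Many of these genes control their own mRNA by switching between productive and degraded splice forms. The QuantSeq FWD libraries read only the 3′ ends of transcripts, so splice forms were not measured here.

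Total counts were 5683824 to 6285624 in the DT libraries and 4805018 to 5499832 in the PBS libraries. All 13 bile duct markers had reads, and they held 2.31% to 2.46% of counts in DT libraries and 2.00% to 2.46% in PBS libraries. Of 13 T and NK cell markers, 10 were at 0 in every library, Foxp3 among them, so the depletion itself was not seen in these data. Hepatocyte markers, of which 4 of 16 (Cps1, Hpd, Ass1 and Pck1) were at 0 throughout, held 0.379% to 0.485% of counts in DT libraries and 0.226% to 0.351% in PBS libraries. Y-linked genes had 880 to 1681 counts in DT libraries, against 2048 in PBS 1 and 0 in PBS 2, 3 and 4. Reads of Xist, which coats the silenced X chromosome, numbered 453, 0 and 0 in DT 1 to 3, against 630, 12089, 17627 and 10420 in PBS 1 to 4. DT 1 and PBS 1 thus held reads of both kinds, so Y-linked reads do not divide the libraries cleanly by sex. The part of hepatocyte RNA or of sex in any difference below was not tested beyond the values given with it.

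The splicing set as a whole took a slightly smaller share of the RNA in each DT library, a net gap over classes that differed in direction. Its 63 genes held 1.40%, 1.40% and 1.33% of counts in DT 1 to 3, against 1.48%, 1.42%, 1.63% and 1.42% in PBS 1 to 4, where the widest exact binomial 95% interval was 1.62% to 1.64%, in PBS 3. These intervals cover counting error only, since reads copied by PCR are not independent molecules. The mean share was 1.38% ± 0.0408 in DT (SD, n = 3) and 1.49% ± 0.0999 in PBS (SD, n = 4). Without Rsrp1 the share was 1.34% ± 0.0463 in DT and 1.38% ± 0.0842 in PBS, and the libraries of both groups overlapped. Within that sum, the mean share of SR proteins was lower in DT (0.312%, against 0.423% in PBS). The mean shares of hnRNPs (0.566% in DT, 0.511% in PBS) and of Sm and snRNP proteins (0.160% in DT, 0.126% in PBS) were higher.

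One member passed the test of DT against PBS. Rsrp1, which encodes a small protein rich in arginine and serine, fell, and no member rose. Levels are given as CPM, the count scaled to a common library total, on library sizes scaled by TMM, which sets libraries to a common level over most genes, and were not divided by gene length because reads come from 1 end of each transcript. The edgeR quasi-likelihood test called 1 of 58 tested members lower, which is 1.72%, against 0.039% of all 7688 tested genes, at a Benjamini-Hochberg adjusted p under 0.05. That 1 call is Rsrp1, whose difference was known when it was added, so the share says nothing of the set. At an unadjusted p under 0.05 by the same edgeR test, 4 members were lower (6.90%, against 2.11% of all tested genes) and 0 were higher (against 1.39%). Rsrp1 is again among the 4. Without it, 3 of 57 were lower: Srsf11, Sf3b2 and Snrpa, the last with 0 counts in every DT library and in PBS 1. DESeq2 and limma-voom also called Rsrp1 lower (adjusted p = 9.07e-07 and 0.0475) and no other member in either direction, out of 82 lower (1.07%) and 29 higher (0.377%) of all tested genes by DESeq2 and 6 (0.078%) each way by limma-voom.

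Rsrp1 was at 232, 396 and 431 CPM in DT 1 to 3, against 1031, 856, 1308 and 1202 CPM in PBS 1 to 4. Every DT library lay far below every PBS library, and DT 1 was the lowest. The means were 353 ± 106 CPM in DT (SD, n = 3) and 1099 ± 198 CPM in PBS (SD, n = 4), a ratio of 0.321. The log2 fold change was -1.64 (edgeR adjusted p = 0.0308, SE 0.33). Fewer cells that express the gene and less of its RNA per cell cannot be told apart in bulk libraries.

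The size of the Rsrp1 difference was similar in every fit tried, while its place against the threshold was not. Over 16 alternative fits the log2 fold change lay between -1.81 and -1.43, and the adjusted p between 9.07e-07 and 0.817. The edgeR adjusted p was 0.192 when DT 1 was left out. It was 0.132, 0.175, 0.519 and 0.365 when PBS 1, 2, 3 or 4 was left out. The call was thus lost in each of these fits, which also hold fewer libraries. It was kept without DT 2 (edgeR adjusted p = 0.0345) and without DT 3 (edgeR adjusted p = 0.0126). With a covariate for Y-linked reads (present or absent) the log2 fold change was -1.55 and did not pass by edgeR. Every DT library had such reads, and PBS 1 was the only PBS library with any. That fold change therefore compares DT with PBS 1 alone and is not an estimate adjusted for sex over all PBS libraries. With DT 1 and PBS 1, the libraries with both Xist and Y-linked reads, left out together, the log2 fold change was -1.44 and the edgeR adjusted p 0.817. Among the remaining libraries every DT library had Y-linked reads and no PBS library had any, so treatment and sex cannot be told apart in that fit.

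**Figure D1:**
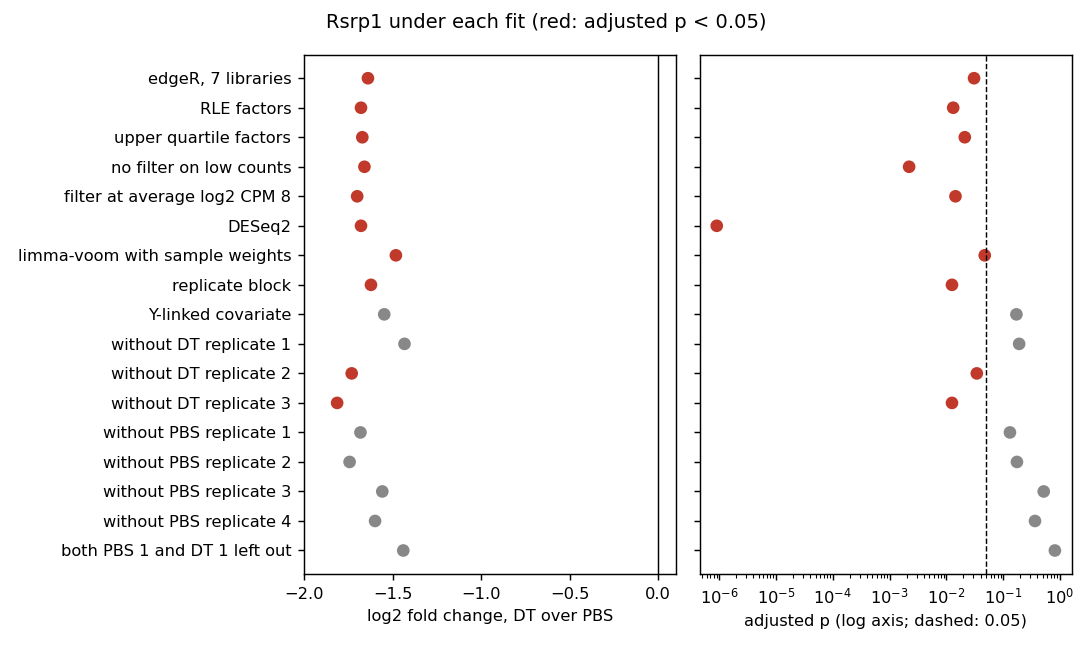
Log2 fold change of Rsrp1, DT over PBS (left), and its adjusted p on a log axis (right) in the edgeR fit on 7 libraries and in 16 alternatives, with red points below the 0.05 threshold marked by the dashed line. Every fold change sits between -1.81 and -1.43, while the adjusted p crosses the threshold when any PBS library or DT 1 is left out.

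Besides Xist, whose counts are given above, 2 nuclear long non-coding RNAs were looked at beside Rsrp1. Malat1 passed the test as lower and Neat1 did not. Xist did not pass either (log2 fold change -6.35, SE 2.88), though every DT library was below every PBS library. Malat1, a long non-coding RNA of nuclear speckles, the bodies where splicing factors are stored, made up 0.559% to 0.685% of counts in DT libraries and 1.11% to 1.43% in PBS libraries (log2 fold change -1.04, edgeR adjusted p = 1.01e-04). Neat1, the RNA scaffold of paraspeckles, was at 324, 607 and 301 CPM in DT and at 754, 935, 639 and 1087 CPM in PBS. Its log2 fold change of -1.06 did not pass (edgeR adjusted p = 1.00, SE 0.35), although its groups did not overlap either. The ribosomal RNA precursor Rn45s made up 3.45%, 4.64% and 4.60% of counts in DT 1 to 3, against 3.16%, 3.09%, 2.63% and 3.52% in PBS 1 to 4. The groups overlapped and it did not pass (log2 fold change 0.50, edgeR adjusted p = 1.00, SE 0.15). The part of nuclear or ribosomal RNA content of a library in the Rsrp1 difference was not tested.

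Among the SR proteins, Srsf11 came closest to Rsrp1. It had the highest average level of any member, with 804, 836 and 834 CPM in DT 1 to 3, against 1378, 999.8, 1392 and 1268 CPM in PBS 1 to 4. The DT libraries were almost level with one another and all lay below the PBS libraries. The means were 825 ± 17.9 CPM in DT (SD, n = 3) and 1259 ± 182 CPM in PBS (SD, n = 4). Its log2 fold change of -0.61 did not pass the test (edgeR adjusted p = 1.00, SE 0.28).

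Because Rsrp1 and Srsf11 were the only members lower in every DT library, the 250 bases before their RefSeq start sites are shown (build GRCm38.p6, another build than the mm9 of the counts). Rsrp1 lies on the plus strand at chr4:134923375-134923624 and Srsf11 on the minus strand at chr3:158036607-158036856. Capitals mark matches to the GC box GGGCGG, the CCAAT box CCAAT, the TATA box TATAAA and the AP-1 motif TGANTCA, on either strand.
Rsrp1: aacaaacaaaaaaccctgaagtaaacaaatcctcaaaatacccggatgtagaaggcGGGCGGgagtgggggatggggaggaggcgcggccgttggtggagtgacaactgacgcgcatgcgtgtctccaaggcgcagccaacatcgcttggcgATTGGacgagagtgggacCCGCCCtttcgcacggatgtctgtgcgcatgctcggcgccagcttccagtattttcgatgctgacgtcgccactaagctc
Srsf11: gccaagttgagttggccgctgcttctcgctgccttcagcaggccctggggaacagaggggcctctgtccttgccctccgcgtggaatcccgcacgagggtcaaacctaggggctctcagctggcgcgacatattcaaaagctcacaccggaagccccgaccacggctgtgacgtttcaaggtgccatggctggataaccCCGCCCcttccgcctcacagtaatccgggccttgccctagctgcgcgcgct
Rsrp1 has 2 GC boxes and 1 CCAAT box in this stretch and Srsf11 has 1 GC box, and neither holds the TATA box or AP-1 letters. RefSeq windows from 250 bases before to 50 after a start were found for 54 of the 63 members, 72 windows in all. The GC box letters occurred in 69.4% of these, against 35.7% of all 32851 windows, the CCAAT letters in 47.2% against 37.4%, the TATA letters in 11.1% against 13.6%, and the AP-1 letters in 2.78% against 7.81%. A match is a description of the letters and does not show that a factor binds.

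Across the SR protein class, 8 of 10 tested genes had negative fold changes, against 50.7% of all tested genes. The median log2 fold change was -0.48, against -0.02 over all tested genes, and 0 of the 10 passed in either direction. Summed over all 11 listed SR genes, the share of counts was 0.267%, 0.314% and 0.356% in DT 1 to 3, against 0.416%, 0.412%, 0.495% and 0.369% in PBS 1 to 4. The DT libraries were thus all below the PBS libraries, with DT 3 and PBS 4 near each other. Srsf11, the best-read SR gene, is part of this sum, with 4730 counts in DT 3 and 6422 in PBS 4. Without Srsf11 the groups overlapped, so the separation of the sum depends on that gene. No p is given for such a sum over chosen genes.

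Single SR genes were less even than their sum. Srsf3, a short SR protein that also takes part in mRNA export, was at 322, 365 and 536 CPM in DT and 278, 422, 689 and 516 CPM in PBS (log2 fold change -0.22, SE 0.40). Srsf2, which binds exonic enhancers, went the other way at 436, 757 and 907 CPM in DT, against 133, 724, 582 and 698 CPM in PBS (log2 fold change 0.39, SE 0.44). Groups overlapped for both, and PBS 1 was the lowest library for each.

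Other SR genes, named after their values were seen, also overlapped between the groups. Srsf1, the founding SR protein, averaged 228 ± 145 CPM in DT and 377 ± 78.9 CPM in PBS (SD, n = 3 and 4), with DT 1 far below the rest at 70.8 CPM. For Srsf5 the means were 235 ± 108 CPM in DT and 397 ± 127 CPM in PBS, for Srsf6 315 ± 19.7 CPM in DT and 396 ± 135 CPM in PBS, and for Srsf7 337 ± 245 CPM in DT and 442 ± 252 CPM in PBS. Srsf4 had 0, 40 and 115 counts in DT 1 to 3 and 0, 357, 1805 and 230 counts in PBS 1 to 4, so its log2 fold change of -3.71 (SE 2.26) rests mainly on PBS 3. Of the remaining SR genes, Srsf10 was at 68.1 to 122 CPM in DT and 101 to 166 CPM in PBS and Srsf9 was at 46.2 to 279.6 CPM in DT and 33.8 to 241 CPM in PBS. Srsf12 had no reads in any library.

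**Figure D2:**
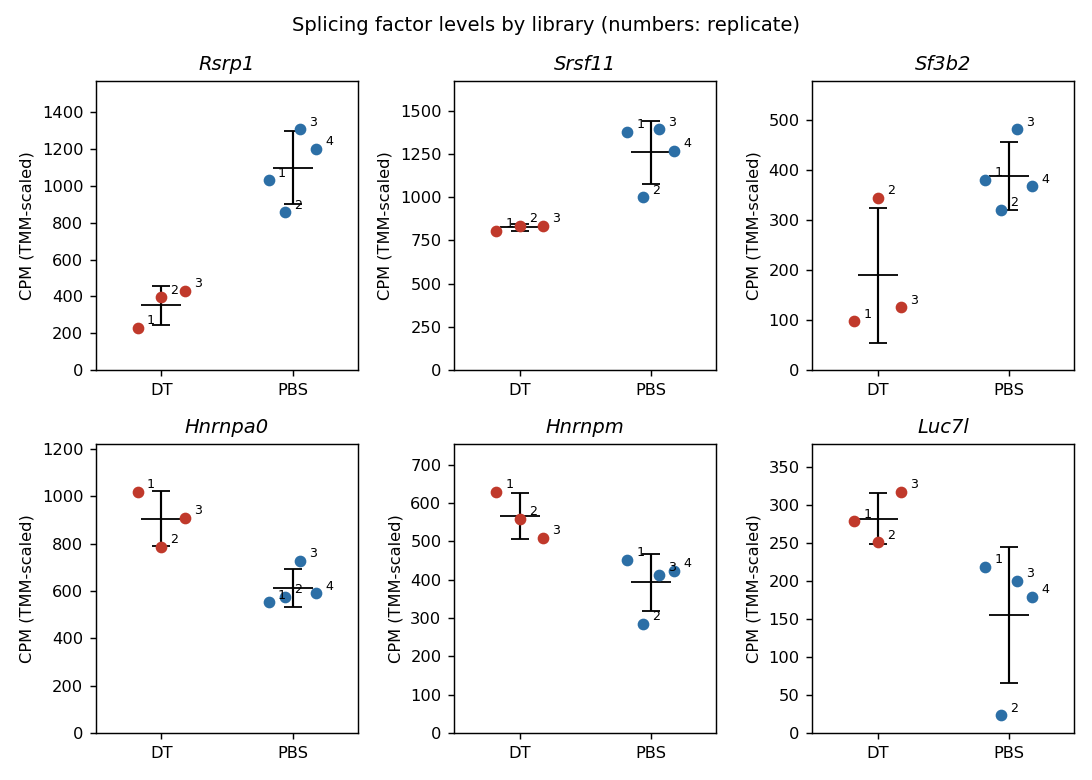
CPM on TMM-scaled library sizes for 6 members in each of the 3 DT (red, left) and 4 PBS (blue, right) libraries, with the mean and SD in black and the replicate number beside each point. Rsrp1 and Srsf11 lie lower in all DT libraries, Hnrnpa0, Hnrnpm and Luc7l lie higher in all of them, and for Sf3b2 DT 2 overlaps PBS.

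The CLK kinases, which release SR proteins from speckles by phosphorylation, were thinly read and did not pass. Clk1 was at 86.5, 379.7 and 139 CPM in DT, against 282, 262, 29.2 and 147 CPM in PBS. Both groups thus covered the same wide range (log2 fold change 0.16, SE 0.70). Clk4 had 144 counts in DT 3 and 0 in DT 1 and DT 2, against 343, 358 and 290 counts in PBS 2 to 4 and 0 in PBS 1 (log2 fold change -2.55, SE 3.21). Clk3 had 0, 335 and 206 counts in DT and 208, 155, 625 and 58 counts in PBS, and Clk2 had 0 to 327 counts in DT and 0 to 486 in PBS. A count of 0 allows up to 3 counts by counting error alone, but such zeros were common: among values of tested members whose fellow libraries averaged 100 to 500 counts, 14.8% were 0, against 0% above 1000 counts.

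The hnRNPs held the largest share of the set's reads, and none of them passed the test. Of 18 tested genes 10 had positive and 8 negative fold changes, and the median log2 fold change was 0.03. In 2 of the 18, Hnrnpa0 and Hnrnpm, every DT library was above every PBS library, against 3.73% of all tested genes. Both averaged a log2 CPM of at least 8, where it was 2 of 8 hnRNPs, against 7.37% of all 733 genes at that level. The 21 listed hnRNP genes summed to 0.637%, 0.550% and 0.510% of counts in DT 1 to 3, against 0.459%, 0.467%, 0.578% and 0.541% in PBS 1 to 4. The 2 groups overlapped.

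Hnrnpa0, an hnRNP that binds AU-rich mRNA, was at 1019, 787 and 909 CPM in DT 1 to 3, against 552, 576, 729 and 591 CPM in PBS 1 to 4. All DT libraries were above all PBS libraries, with means of 905 ± 116 CPM in DT (SD, n = 3) and 612 ± 79.7 CPM in PBS (SD, n = 4), but the log2 fold change of 0.56 did not pass (edgeR adjusted p = 1.00, SE 0.31). Hnrnpm, which binds GU-rich sequence and regulates exon skipping, was at 629, 559 and 509 CPM in DT and 451, 284, 412 and 424 CPM in PBS. It separated the groups in the same direction (log2 fold change 0.53, edgeR adjusted p = 1.00, SE 0.37).

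The other well-read hnRNPs overlapped between the groups. Hnrnpu, a chromatin-associated scaffold protein, was at 779.6, 509 and 671 CPM in DT and 902, 607, 717 and 656 CPM in PBS (log2 fold change -0.14, SE 0.32). Hnrnpab was at 493, 938 and 744 CPM in DT, against 449.5, 441, 638 and 709 CPM in PBS (log2 fold change 0.37, SE 0.34). Named after their values were seen, Hnrnpk, which binds C-rich RNA, averaged 654 ± 222 CPM in DT and 498 ± 217 CPM in PBS, and Hnrnpc, which binds uridine tracts, 309 ± 235 CPM in DT and 468 ± 94.5 CPM in PBS (SD, n = 3 and 4). For Hnrnpc, DT 3 at 580.3 CPM stood with the PBS libraries, while DT 1 and DT 2 were at 161 and 184 CPM. Hnrnpa2b1 and Hnrnpdl had log2 fold changes of 0.02 and 0.06, and Hnrnpa1, whose reads can be split with its many processed copies, had -0.05. The remaining 9 tested hnRNPs had log2 fold changes from -0.97 (Hnrnpf) to 1.83 (Hnrnpd), all with SE of 0.58 or more. Hnrnph2 had 244 counts in PBS 2 and 0 elsewhere, the pseudogene Hnrnpa1l2-ps2 had 1 count in PBS 4, and Hnrnpul1 had none.

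**Figure D3:**
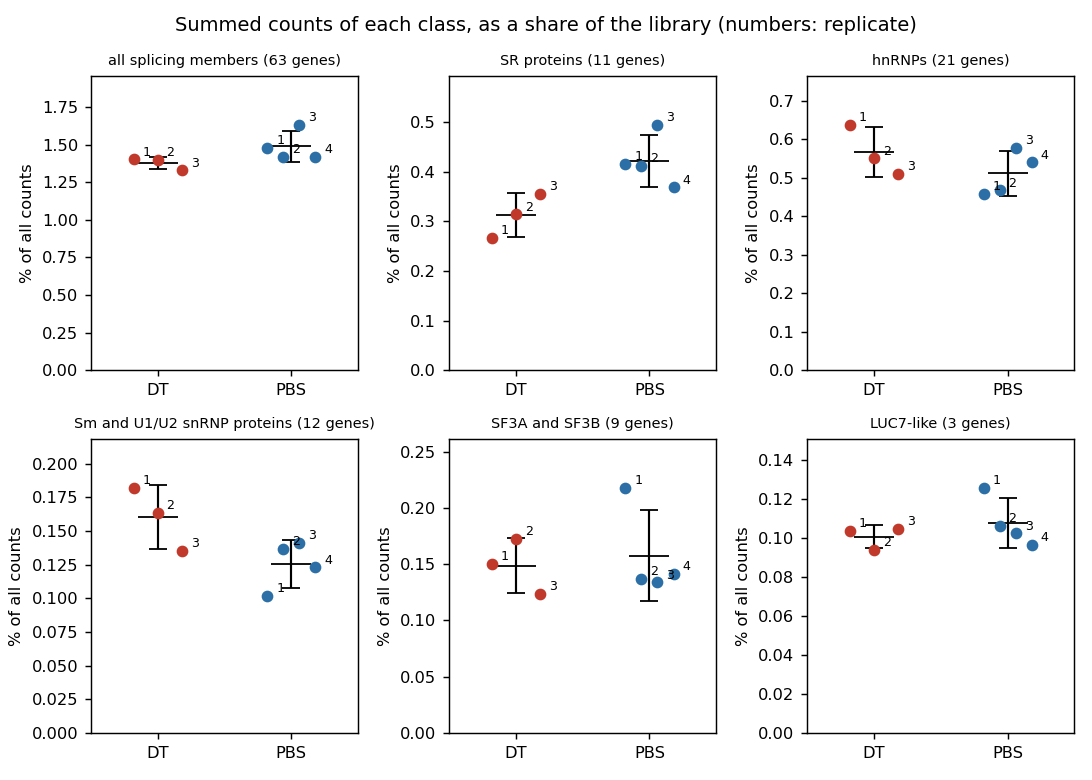
Summed counts of all 63 members and of 5 role classes as a percent of all counts, per DT (red, left) and PBS (blue, right) library, with the mean and SD in black and replicate numbers beside the points. The SR protein sums, Srsf11 included, are 0.267% to 0.356% in DT and 0.369% to 0.495% in PBS. The sums of all members, Rsrp1 included, are 1.33% to 1.40% in DT and 1.42% to 1.63% in PBS. The other 4 classes overlap.

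The Sm and snRNP proteins, the core of the U1 and U2 particles, showed no member past the test. Of 11 tested genes 6 had positive and 5 negative fold changes, with a median of 0.12, and the class summed to 0.135% to 0.182% of counts in DT libraries and 0.102% to 0.141% in PBS libraries. Snrpb, the SmB protein, was at 168, 452 and 309 CPM in DT and 434, 373, 289 and 321 CPM in PBS (log2 fold change -0.20, SE 0.46). Snrpb2, a U2-specific protein, was at 192, 236 and 221 CPM in DT and 230.2, 339.7, 237 and 228 CPM in PBS (log2 fold change -0.26, SE 0.53). The groups overlapped for both genes, and PBS 2 alone raised the Snrpb2 mean.

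Snrpf, the Sm ring protein F, was at 542, 274 and 202 CPM in DT, against 38.6, 67.4, 314 and 216 CPM in PBS. It had a log2 fold change of 1.10 (edgeR adjusted p = 1.00, SE 0.60), with PBS 3 and PBS 4 inside the DT range. Snrpa, the U1 snRNP protein that binds a loop of U1 RNA, had 0 counts in each DT library and in PBS 1, against 81, 248 and 110 counts in PBS 2 to 4. Set against 3 counts per library, the PBS mean makes DT at least 41.8-fold lower by counting error alone (edgeR adjusted p = 1.00), yet zeros at this level were common, PBS 1 included. The other 7 tested genes of the class had log2 fold changes from -2.60 (Snrpc) to 1.78 (Snrpd2), with SE of 0.87 or more, and Snrpn had no reads.

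The factors that recognise the branch point and the intron ends included the fourth member at an unadjusted p under 0.05. Sf3b2, a subunit of the SF3B complex of U2, was at 97.8, 345 and 126 CPM in DT, against 381, 321, 482 and 368 CPM in PBS. DT 1 and DT 3 were well below PBS and DT 2 was within it, and the log2 fold change of -1.03 did not pass (edgeR adjusted p = 1.00, SE 0.50). Sf3b1, the subunit that clamps the branch point, was at 541, 959 and 774 CPM in DT, against 1360.1, 431, 499 and 483 CPM in PBS. PBS 1 was the highest library and the other 3 PBS libraries lay below every DT library (log2 fold change 0.13, SE 0.36). Sf3b6, the subunit that touches the branch adenosine, ranged from 59.8 to 246 CPM in DT and from 2.14 to 291 CPM in PBS (log2 fold change -0.03, SE 0.97). The other 6 SF3A and SF3B genes had log2 fold changes from -0.49 (Sf3b5) to 1.62 (Sf3b4), with SE above 1.

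U2af2, the large U2AF subunit that binds the polypyrimidine tract, was at 262, 172 and 338 CPM in DT and 40.2, 370.5, 109.6 and 95.7 CPM in PBS (log2 fold change 0.74, SE 0.66). U2af1, the small subunit that binds the AG at the intron end, was at 1.33, 38.5 and 116 CPM in DT and 114, 50.9, 145 and 13.0 CPM in PBS (log2 fold change -0.64, SE 1.95). Neither gene separated the groups.

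The 3 LUC7-like genes, whose yeast relative Luc7 is part of the U1 snRNP, differed in direction. Luc7l was at 278, 250.3 and 317 CPM in DT, above the 218, 23.1, 200.2 and 179 CPM of PBS (log2 fold change 0.86, edgeR adjusted p = 1.00, SE 0.63). Luc7l3, which has a long arginine-serine tail, was at 399, 415 and 686 CPM in DT, against 716, 839.5, 713 and 593 CPM in PBS, with only DT 3 inside the PBS range (log2 fold change -0.52, edgeR adjusted p = 1.00, SE 0.34). Luc7l2 overlapped at 301, 352 and 156 CPM in DT and 272, 221, 99.9 and 275 CPM in PBS (log2 fold change 0.31, SE 0.55).

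**Figure D4:**
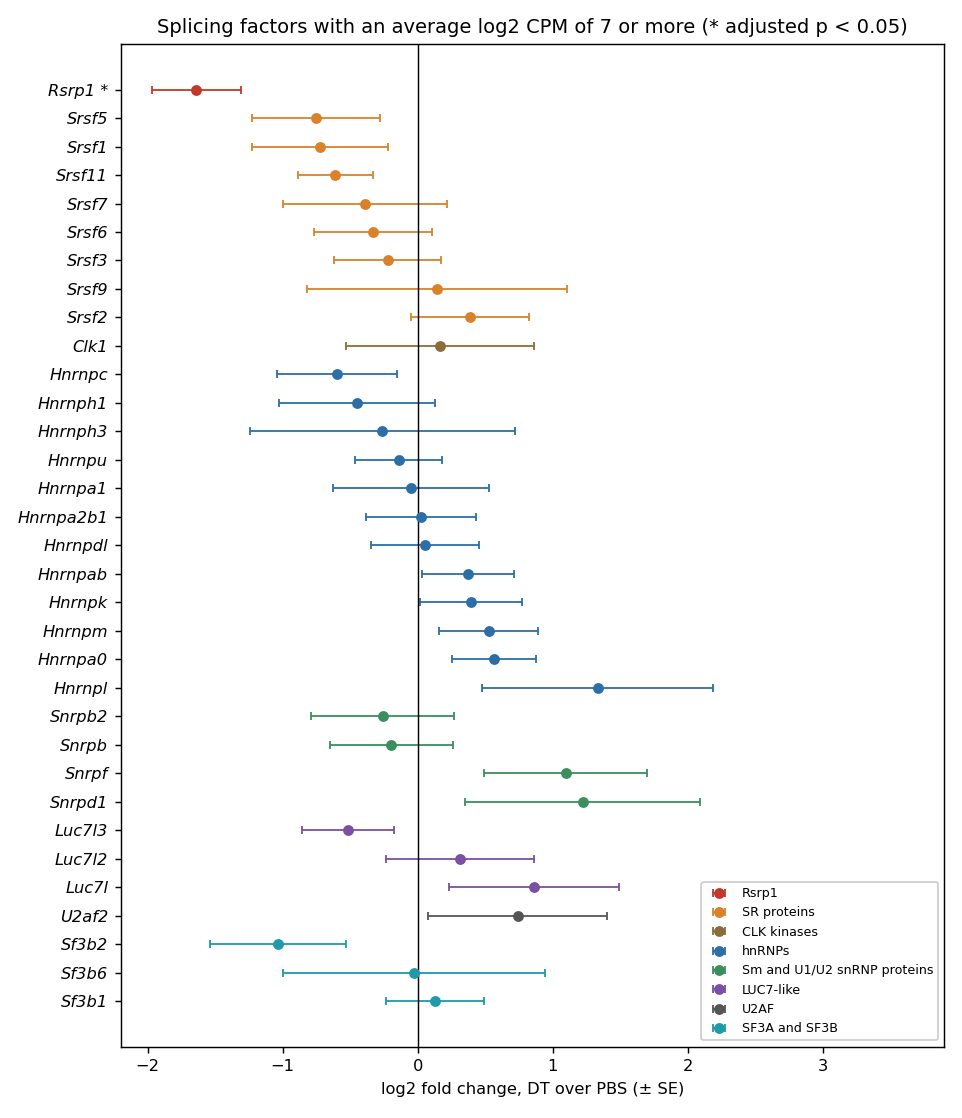
Log2 fold change, DT over PBS, with its SE for the 33 members whose log2 CPM averaged at least 7, coloured by role class. Rsrp1 at -1.64 is the only one past the threshold, the SR proteins other than Srsf2 and Srsf9 lie below 0, and the hnRNP, snRNP, LUC7-like and SF3 genes lie on both sides.

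Counted over the set, separation of the groups was near the background. Of 58 tested members, 2 (Rsrp1 and Srsf11, 3.45%) were lower in every DT library and 3 (Hnrnpa0, Hnrnpm and Luc7l, 5.17%) were higher in every one, against 2.58% and 3.73% of all tested genes. Among members whose log2 CPM averaged at least 8, it was 2 of 20 in each direction (10.0%), against 5.59% lower and 7.37% higher of all 733 genes at that level. Members with negative fold changes were 31 of 58 (53.4%), against 50.7%. The median log2 fold change of the tested members was -0.10, against -0.02 over all tested genes.

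Precision followed read depth. The 20 members whose log2 CPM averaged at least 8 had a median coefficient of variation of 31.5% in DT and 22.5% in PBS. Over all 733 genes at that level it was 29.9% in DT and 31.8% in PBS. The 38 less well-read tested members had 58.3% in DT and 75.4% in PBS.

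**Figure D5:**
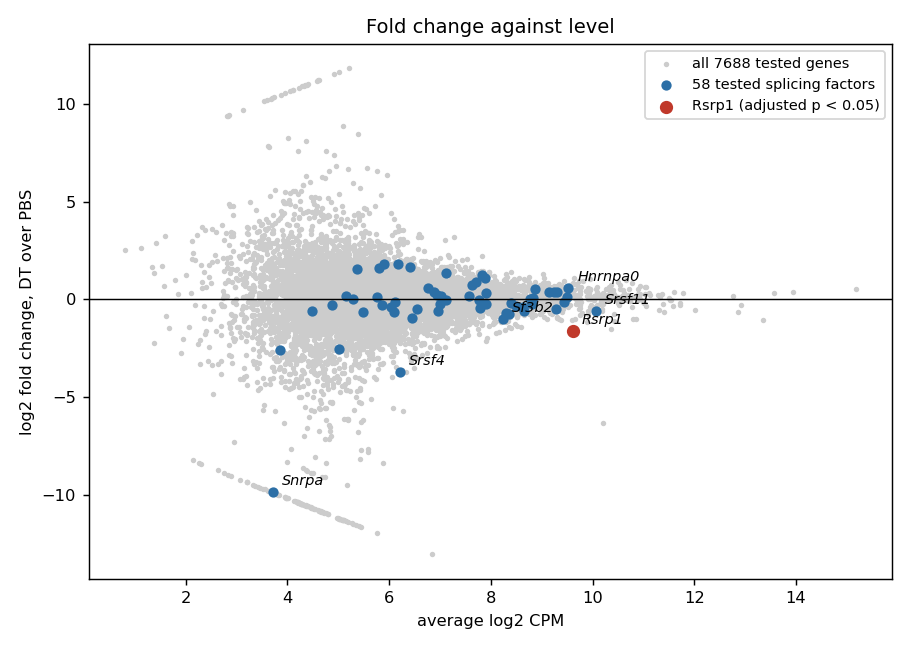
Log2 fold change, DT over PBS, against average log2 CPM for all 7688 tested genes (grey), the 58 tested members (blue) and Rsrp1 (red). The other members lie within the grey cloud and narrow with level as it does. Rsrp1 lies at -1.64 at an average log2 CPM of 9.61, while Xist, at 10.2, lies lower at -6.35. Snrpa lies on the line of genes at 0 in all DT libraries.

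Other genes of the splicing machinery gave 0 calls in either direction by the edgeR test, out of 139 tested of 159 listed, with 3 lower (2.16%, against 2.11% of all tested genes) and 0 higher at an unadjusted p under 0.05. Their median log2 fold change was -0.15. DESeq2 called 1 of the 139 lower (Rbm4b), against 1.07% of all tested genes, and limma-voom 0. The list of exon junction and speckle proteins had 14 of 18 tested genes with negative fold changes and a median of -0.56, and that of other U1 and U2 factors had 13 of 20 and a median of -0.23. The medians were 0.29 for 15 U5 and tri-snRNP genes, -0.08 for 31 genes of the Prp19 complex and the catalytic steps, 0.04 for 38 splicing regulators, 0.00 for 6 LSm genes, -0.69 for 7 minor spliceosome genes and -0.66 for 4 further SR kinases. No list held a gene past the edgeR threshold.

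Within these lists, Zrsr2, a relative of U2AF in the minor spliceosome, was at 65.3, 113 and 176 CPM in DT and 761, 478, 125 and 199 CPM in PBS. The high values were PBS 1 and PBS 2, and reads may be shared with its near copy Zrsr1 (log2 fold change -1.72, edgeR adjusted p = 1.00, SE 0.58). Ddx39b, a helicase that brings U2 to the branch point, was at 209, 356 and 156 CPM in DT and 469, 674, 299 and 391 CPM in PBS (log2 fold change -0.93, SE 0.45). Nktr, a speckle cyclophilin with arginine-serine repeats, was at 50.2, 62.0 and 109.9 CPM in DT, against 255, 88.1, 355 and 185 CPM in PBS (log2 fold change -1.58, SE 0.80). For both genes, 1 library of each group lay inside the range of the other. Rbm4b, an RNA-binding splicing regulator close in sequence to Rbm4, had 0 counts in each DT library, against 299, 117, 177 and 269 counts in PBS, and did not pass by edgeR (adjusted p = 1.00), though it did by DESeq2 (adjusted p = 0.0110). The genes with the smallest p in the remaining lists were Prpf4 (0, 1 and 0 counts in DT and 0, 345, 129 and 204 in PBS), Cwc27 (0, 14 and 0 in DT and 0, 233, 444 and 558 in PBS), Lsm4 (log2 fold change 2.10, SE 2.79) and Dyrk1a (0.91, SE 1.01). None of them passed.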

How the data were processed

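Libraries were made from total RNA with a QuantSeq FWD kit, per the labels' protocols, and read 3′ ends. The authors deposited raw counts per gene symbol for 7 libraries, with mm9 named as the build in the submitters' processing notes. How reads were aligned and counted, with which annotation and whether by strand or molecular identifier, is not given in the sources used here. Sample titles gave the group and replicate number of each library.

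TMM scaling, filterByExpr (7688 genes, 97.5% of counts) and the two-sided quasi-likelihood F test of edgeR 4.0.16 (R 4.3.3, robust) compared DT with PBS, with Benjamini-Hochberg adjustment over all tested genes. The SE came from the fold change and F. Steps were tested on simulated data. Alternatives used RLE or upper quartile factors, other filters, DESeq2 1.42.0, limma-voom (limma 3.58.1), a replicate block, a Y-linked covariate and left-out libraries. Members, lists and alternatives were chosen with earlier results of these data known. Named were Rsrp1, members with an unadjusted p under 0.05, members at an average log2 CPM of 7 or more without overlap, the top 3 by level per class, and the smallest p per further list. Protein sequence was not used here. Figures used matplotlib 3.10.9.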

Additional observations from a re-analysis of the deposited data

Results flagged for a closer look

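Of 23 named members, 2 had a PBS library far from the other PBS libraries, where 1.15 are expected by chance. For Sf3b1, PBS 1 stood at 1360.1 CPM and the nearest PBS library at 499 CPM, a gap of 0.927 of the range of the group. For Snrpb2, PBS 2 stood at 339.7 CPM and the nearest at 237 CPM, a gap of 0.922 of the range.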

How the results depend on the processing

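Rsrp1 was lower in DT in all 16 alternatives, and it passed in 9 of them. The count of lower members was 0 with the Y-linked covariate and with PBS 1 and DT 1 left out together, and 0 to 1 when 1 library was left out, while 0 members were higher in any fit. Over all genes, lower and higher calls numbered 7 and 1 with no filter, 5 and 0 when only genes averaging a log2 CPM of 8 were tested, 82 and 29 by DESeq2, 6 and 6 by limma-voom, and 3 and 23 with the covariate. They ran from 1 to 4 lower and 0 to 1 higher when 1 library was left out. The median log2 fold change of the members was 0.23 with the covariate, which raised the median of all tested genes to 0.67, and lay between -0.15 and 0.03 when 1 library was left out. Fold changes with the covariate compare the DT libraries with PBS 1 alone, the only PBS library with Y-linked reads. With the replicate number as a block, 6 genes were lower and 6 higher, Rsrp1 among the lower. Deviations of same-numbered libraries correlated at -0.0490, -0.0122 and 0.0259, with 1 of 3 DT libraries closest to its own number, so the numbers were not taken as pairs.

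Of the 23 named members, 13 kept their sign in every fit that gave one. Snrpa gave none with the covariate, and it was not tested when PBS 2, PBS 3 or PBS 4 was left out. The sign of Sf3b6 turned with RLE factors (0.039), by DESeq2 (0.039), by limma-voom (0.16), with the block (0.48) and with the covariate (5.98). With the covariate it also turned for Clk1 (-0.49), Clk4 (8.49), Luc7l2 (-0.012), Sf3b1 (-0.84) and Srsf3 (0.55), and with PBS 1 and DT 1 left out for Snrpb (0.21) and U2af1 (0.15). When 1 library was left out, log2 fold changes ran from -0.57 to 0.080 for Snrpb, -0.68 to 0.50 for Clk1, -0.31 to 0.0069 for Hnrnpu, -0.077 to 0.67 for Sf3b1, -0.79 to 0.62 for Sf3b6 and -1.53 to 0.25 for Clk3. The cause was not tested. Members below about 500 counts are limited by their frequent zeros. Where the fellow libraries averaged 500 to 1000 counts, 2.56% of values were 0.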
